A study of Mus musculus with 3 samples.

Results

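Ago2 peaks that lie just past the annotated ends of protein-coding genes were examined in N2A cells, a mouse neuroblastoma cell line. They come from HITS-CLIP, in which ultraviolet light links a protein to the RNA it touches, the protein is pulled down with an antibody and the attached RNA is sequenced. The data hold 3 libraries from untreated cells in 1 group, numbered replicates 1, 2 and 3. Cells were irradiated first with 400 mJ/cm2 and later with 200 mJ/cm2, Ago2 was precipitated with the 2D4 antibody, and no library of another antibody or of input RNA was analysed here. Nothing in the labels says that the samples came from separate cultures. A peak was taken when its midpoint lay outside every annotated gene on its own strand and 1 to 10000 nt downstream of the end of the nearest protein-coding gene on that strand, with gene ends from GENCODE mouse M21 on GRCm38. The rule found 53038 peaks among 2039384, a share of 2.6%: 20567 of 711377 in replicate 1, 13413 of 498071 in replicate 2 and 19058 of 829936 in replicate 3. As background, the same rule was applied upstream of gene starts, where it found 19038, 11392 and 17043 peaks.

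Messenger RNAs end in a 3′UTR, the stretch after the coding sequence in which most known miRNA sites lie. A miRNA guides an Argonaute protein such as Ago2 to an RNA by pairing through its seed, bases 2 to 8 from its 5′ end. Many genes use more than 1 cleavage and polyadenylation site, usually marked by AATAAA or a close variant a short way upstream, and neurons are known for long 3′UTRs. A peak past an annotated end can therefore lie in a 3′UTR longer than the annotation gives, but also in another transcript or in background, and the rule does not tell these apart.

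The sequences in this paragraph are the full matches to a seed followed by A (8mer sites) that lay in stretches covered downstream of a gene in all 3 libraries, for 23 miRNA families. There were 9 such sites in 9 genes, 1.32 times the number expected from the rest of the same genes' downstream sequence. Each is shown 5′ to 3′ in 30 nt of GRCm38.p6 with the site in capitals, ordered by the distance of its stretch from the gene end. They run from Tusc3, a subunit of the oligosaccharyltransferase complex, 102 nt past its end, to Cfap54, 7513 nt past its end.
Tusc3, miR-101 site, chr8:39165191-39165220, plus strand: aagaattgctaGTACTGTAcaaggatagag
Map3k3, miR-181 site, chr11:106155571-106155600, plus strand: atgcacttttaTGAATGTAgtttctatcgc
Orm3, miR-128 site, chr4:63359956-63359985, plus strand: cccatgggggaCACTGTGAgatgacactgc
Luc7l2, miR-130 site, chr6:38610922-38610951, plus strand: taatgataaacTTGCACTAcattaaaaaaa
Ubxn2a, miR-26 site, chr12:4877518-4877547, minus strand: ataaatcttttTACTTGAAaattcaaaagt
Slc6a20b, miR-30 site, chr9:123588988-123589017, minus strand: catgtggtgatTGTTTACAgtgctaactct
Acss3, miR-17 site, chr10:106931138-106931167, minus strand: taggtggtagtGCACTTTAggtcgtgtaga
Usp39, let-7 site, chr6:72312270-72312299, minus strand: gatctggcgttCTACCTCActctgccactc
Cfap54, miR-181 site, chr10:92768067-92768096, minus strand: agaaatcttttTGAATGTAttaattacttt

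The mature miRNAs that belong to the 5 sites nearest to a gene end are given from RefSeq (GRCm38.p6), with the seed in capitals, so that the pairing can be read against the sites above. The seed of miR-101a-3p pairs with the Tusc3 site, that of miR-181a-5p with the Map3k3 site and that of miR-26a-5p with the Ubxn2a site, and these 3 sites lie in sequence that RefSeq counts as an exon of the same gene. Those of Orm3, Luc7l2, Slc6a20b, Acss3, Usp39 and Cfap54 lie outside RefSeq genes of their strand, though those of Slc6a20b, Acss3 and Usp39 lie inside a GENCODE gene on the other strand.
mmu-miR-101a-3p: uACAGUACugugauaacugaa
mmu-miR-181a-5p: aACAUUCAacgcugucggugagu
mmu-miR-128-3p: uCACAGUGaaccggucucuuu
mmu-miR-130a-3p: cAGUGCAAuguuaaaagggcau
mmu-miR-26a-5p: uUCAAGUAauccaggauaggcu

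The 3 libraries differed in the number of peaks as given above, and read depth is unknown because the table holds no counts. The cell type was checked by peaks in exons on the gene's strand. Of 17 neuroblastoma and neuron markers, 13 had such a peak in all 3 libraries, among them Hand2, Isl1 and Mycn, and Th had none, beside 37.7% of all protein-coding genes with such a peak in all 3 libraries and 25.9% with none. The count was 1 of 6 for myeloid, 1 of 6 for hepatocyte, 0 of 6 for skeletal muscle, 0 of 6 for erythroid and 3 of 6 for oligodendrocyte markers, the last including Mbp and Cnp.

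Downstream peaks were only a little denser than upstream peaks. They had 124 peaks per Mb of sequence outside genes in replicate 1, 81 in replicate 2 and 115 in replicate 3, against 115, 68.8 and 103 upstream. Every library was higher downstream, and the ratio was 1.08, 1.18 and 1.12, with a mean of 1.13 ± 0.0489 (SD, n = 3). The exact sign-flip permutation test over libraries, two-sided, gave p = 0.25, which is the smallest value that 3 libraries allow, so that no ratio here can pass a threshold of 0.05. At the upstream density, the downstream sequence would have held 1530, 2022 and 2016 fewer peaks. The excess was thus a small part of the downstream peaks in each library.

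Peak width separated the downstream peaks into kinds that behaved differently. Peaks of at most 85 nt made up 73.1%, 68.6% and 64.8% of downstream peaks in replicates 1, 2 and 3. The smallest width in the table is 79 nt, so these lie close to the minimum, and the number of reads behind a peak is not in the table. Their density over the 10000 nt was 1.02, 1.05 and 1.03 times that upstream, and within 500 nt of the gene end it was 0.958, 0.965 and 0.982 times. Narrow peaks were thus about as dense after genes as before them, on the strand of the gene. Peaks of 86 to 200 nt made up 21.4%, 23.1% and 29.3%, and their ratio was 1.33, 1.91 and 1.39, a mean of 1.54 ± 0.317 (SD, n = 3, exact permutation p = 0.25). In their case the downstream density was higher in every library by more than the spread between ratios. Peaks of 200 to 1000 nt and over 1000 nt were few, at most 1.68% and 6.62% of a library's downstream peaks, with mean ratios of 1.16 ± 0.0973 and 1.09 ± 0.098 (SD, n = 3).

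The excess of peaks of 86 to 200 nt sat close to the gene end. Within 500 nt downstream there were 38.4, 47.9 and 72.9 peaks per Mb in replicates 1, 2 and 3, against 18.1, 14.6 and 31.2 upstream. All downstream values lay above all upstream values, and the ratio was 2.12, 3.28 and 2.33, a mean of 2.58 ± 0.619 (SD, n = 3). The mean was 1.99 ± 0.581 at 500 to 1000 nt, 1.98 ± 0.702 at 1000 to 2000 nt and 1.71 ± 0.396 at 2000 to 3000 nt. Beyond that it was 1.43 ± 0.268 at 3000 to 5000 nt, 1.18 ± 0.109 at 5000 to 7500 nt and 1.11 ± 0.0671 at 7500 to 10000 nt. In the 2500 nt just outside the limit of the rule it was 1.05 ± 0.0673, and replicate 3 was then lower downstream, at 0.97. In numbers, 209, 343 and 429 peaks within 500 nt were in excess of the upstream density.

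**Figure D1:**
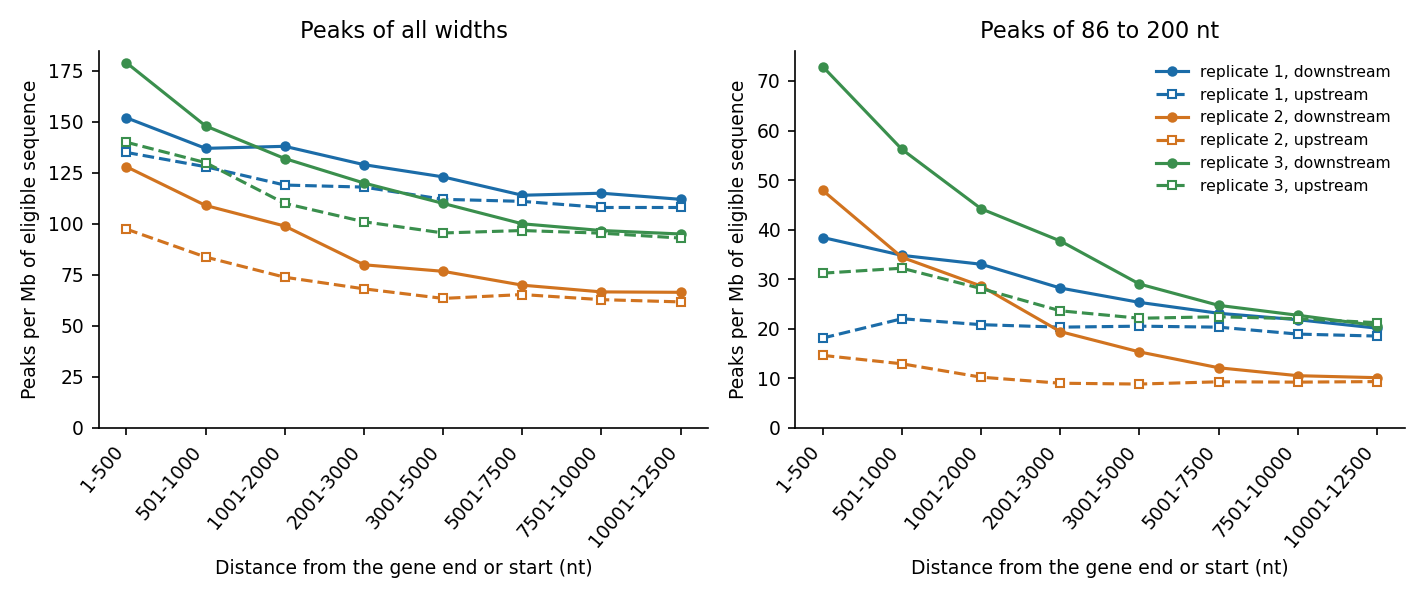
Peaks per Mb of sequence outside genes on the strand (y axis) by distance from the gene end (filled circles, solid lines) or gene start (open squares, dashed lines) in nt (x axis), for all widths (left) and for peaks of 86 to 200 nt (right), with a colour for each library. The 3 downstream lines of the right panel start at 38.4, 47.9 and 72.9 peaks per Mb and meet the upstream lines at the far end.

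The edge of the rule at 10000 nt did not mark a step. In replicates 1, 2 and 3 there were 1592, 892 and 1319 downstream peaks at 9000 to 10000 nt, and 1534, 900 and 1250 peaks just outside, at 10000 to 11000 nt. At the near edge, 135, 136 and 205 peaks had their midpoint within 40 nt of the annotated end.

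Peaks on the strand of the gene were compared with those on the other strand of the same sequence. Taken over all downstream sequence, the sense density was lower, with a ratio of 0.806, 0.423 and 0.437 (mean 0.555 ± 0.217, SD, n = 3, exact permutation p = 0.25). The other strand of this sequence often holds a gene that runs the opposite way, and 49.2%, 75% and 74% of the peaks on it lay inside a gene on their own strand. Where genes on both strands were left out, the ratio turned to a mean of 1.16, and for peaks of 86 to 200 nt to 1.41, 1.83 and 1.55 (mean 1.6 ± 0.214, SD, n = 3, exact permutation p = 0.25). Within 500 nt these peaks had 38.1, 50.3 and 71.7 per Mb on the sense strand and 19.6, 12.8 and 24.4 on the other, a ratio of 1.95, 3.94 and 2.94. Sense peaks were thus denser in each library near the end of the gene. The mean ratio was 2.55 ± 0.733 at 500 to 1000 nt, 2.11 ± 0.564 at 1000 to 2000 nt and 1.02 ± 0.0478 in the 2500 nt beyond 10000 nt. Upstream of gene starts the same ratio was 0.99 ± 0.0268 over 10000 nt, but 1.1, 1.19 and 0.781 within 500 nt and 1.01, 0.9 and 0.684 at 500 to 1000 nt, where replicate 3 was the lowest. For peaks of at most 85 nt the downstream ratio within 500 nt was 1.08, 1.26 and 1.15 (mean 1.17 ± 0.0898, SD, n = 3, exact permutation p = 0.25), above 1 in each library, and the upstream ratio was 1.02 ± 0.0332.

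**Figure D2:**
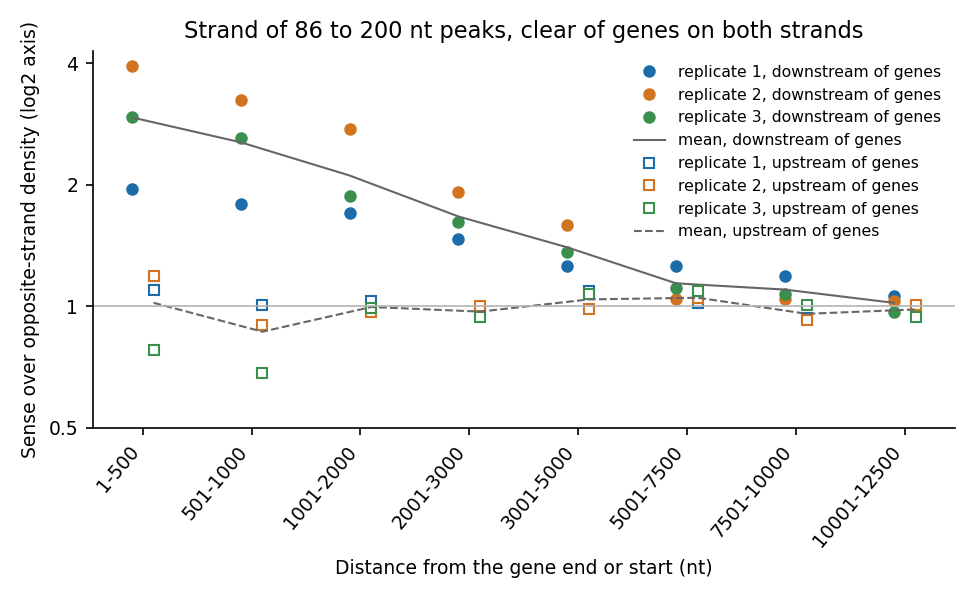
Ratio of sense to opposite-strand density (y axis, log2 scale) of peaks of 86 to 200 nt in sequence clear of genes on both strands, by distance in nt (x axis), downstream of gene ends (filled circles, solid line for the mean) and upstream of gene starts (open squares, dashed line for the mean), with a colour for each library. Downstream values fall from 1.95, 3.94 and 2.94 in the first 500 nt towards 1, while upstream values lie nearer to 1 and are as low as 0.684 at 500 to 1000 nt in replicate 3.

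RefSeq, a second annotation of the same build, places the ends of many genes farther out. It was matched by symbol or synonym for 20594 of 21047 genes, and its end lay over 500 nt past the GENCODE end in 1379 genes and over 1000 nt past it in 1072. Of the downstream peaks of 86 to 200 nt, 289 of 4409 in replicate 1, 858 of 3093 in replicate 2 and 846 of 5584 in replicate 3 lay in sequence that RefSeq counts as an exon of the same gene, or 6.55%, 27.7% and 15.2%. This sequence held 107, 319 and 314 of these peaks per Mb, against 25.1, 13.2 and 28.8 per Mb in downstream sequence outside every RefSeq gene on the strand. The first density was higher in every library, by 4.28, 24.2 and 10.9 times (mean 13.1 ± 10.1, SD, n = 3, exact permutation p = 0.25). The ratio was largest in replicate 2, which had the lowest density outside RefSeq genes. For comparison, the 3′UTRs annotated by GENCODE held 326, 1350 and 1370 peaks of this width per Mb.

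Peaks past both annotations were still denser downstream than upstream, though by less. Outside RefSeq genes, peaks of 86 to 200 nt had 25.1, 13.2 and 28.8 per Mb downstream and 20, 9.28 and 23.4 upstream, a ratio of 1.25, 1.42 and 1.23 (mean 1.3 ± 0.106, SD, n = 3, exact permutation p = 0.25). Each library was higher downstream. Within 500 nt the ratio was 2.05, 2.32 and 1.85 (mean 2.07 ± 0.232), from 33.1, 26.5 and 49.6 per Mb downstream and 16.1, 11.5 and 26.8 upstream. It was 1.43 ± 0.103 at 500 to 1000 nt, 1.53 ± 0.331 at 1000 to 2000 nt, 1.32 ± 0.117 at 2000 to 5000 nt and 1.09 ± 0.0362 at 5000 to 10000 nt (SD, n = 3). In RefSeq exons of the gene the density was 99.2, 313 and 372 per Mb within 500 nt in replicates 1, 2 and 3, and 121, 314 and 203 at 5000 to 10000 nt. Replicate 3 was thus lower far from the gene end, replicate 1 a little higher and replicate 2 about equal.

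**Figure D3:**
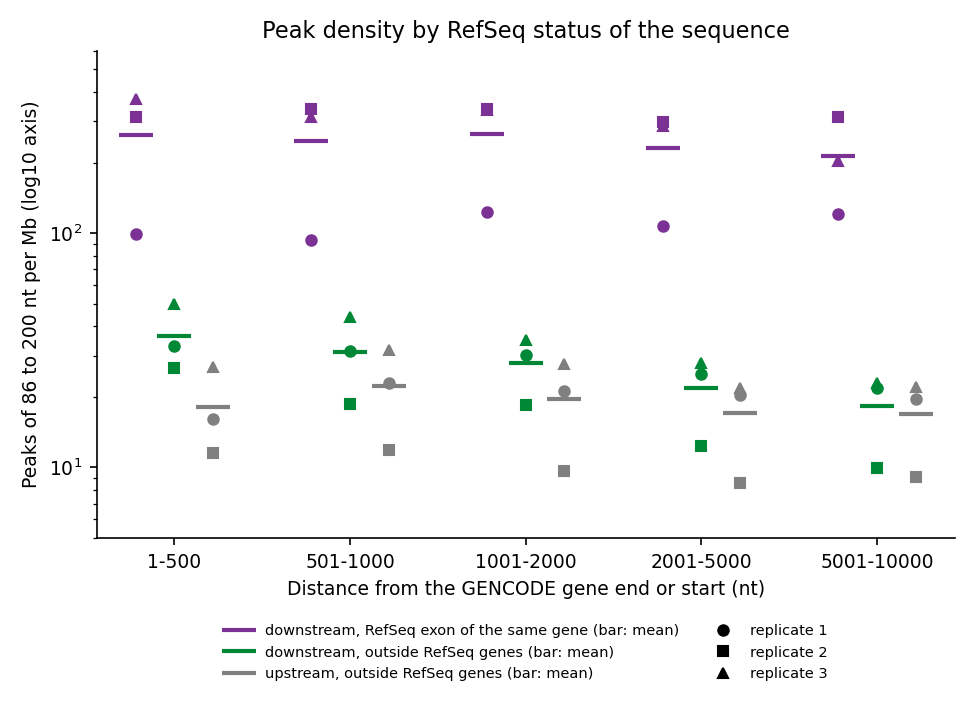
Peaks of 86 to 200 nt per Mb (y axis, log10 scale) by distance from the GENCODE gene end or start in nt (x axis), for downstream sequence in a RefSeq exon of the same gene (purple), downstream sequence outside RefSeq genes (green) and upstream sequence outside RefSeq genes (grey), with a symbol for each library and a bar for the mean. Purple means stay between 213 and 265 peaks per Mb, and green means fall from 36.4 to 18.3.

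Genes with Ago2 peaks in the annotated 3′UTR also had more peaks past it. Genes were sorted, for each library, by whether the other 2 libraries had a 3′UTR peak in them, so that the sorting used no peak of the library measured. Within 2000 nt downstream, peaks of 86 to 200 nt had 56.1, 71.4 and 110 per Mb in replicates 1, 2 and 3 where both other libraries had a 3′UTR peak, and 19.3, 14.7 and 26.8 where neither had. The first set of values lay above the second in every library, with means of 79.2 ± 27.8 and 20.3 ± 6.11 (SD, n = 3). Upstream of the same sets of genes the means were 28 ± 13.5 and 16 ± 7.06. At 5000 to 10000 nt downstream they were 27.8 ± 9.06 and 13.8 ± 5.68. The levels of the RNAs were not measured in these data, and more of an RNA cannot be told apart from more binding per RNA.

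Taken over peaks of all widths, 39.5%, 53.2% and 56.9% of downstream peaks belonged to a gene with a 3′UTR peak in the same library, against 37.3%, 48.2% and 52.5% of upstream peaks. The difference was 2.2, 4.94 and 4.33 percentage points, a mean of 3.82 ± 1.44 (SD, n = 3). Repeats were less often at the midpoint of downstream than of upstream peaks of 86 to 200 nt, with 48.3%, 34% and 42.4% against 63.6%, 53.7% and 58.2%. Over all eligible sequence, 33.6% downstream and 35.1% upstream is marked as repeat in the reference, so that peaks of this width lay in repeats at or above the share of the sequence. In repeats, reads can map to more than 1 place, and how the authors treated such reads is not stated.

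Few downstream peaks recurred at the same place. On average over the other 2 libraries, 9.22%, 14.7% and 11.7% of the downstream peaks of replicates 1, 2 and 3 were met by a peak on the same strand, a mean of 11.9% ± 2.75 (SD, n = 3). The share was 9.84% ± 2.13 for upstream peaks and 51.9% ± 7.65 for peaks in annotated 3′UTRs. It rose towards the gene end, to 18.1% ± 3.24 within 500 nt for all widths and to 21.5% ± 6.12 for peaks of 86 to 200 nt, against 13.4% ± 1.93 and 11.8% ± 1.03 upstream. Downstream shares were higher in each library in both cases, though they stayed below those of 3′UTR peaks. Peaks can meet more often where they are denser, as near gene ends and in 3′UTRs (551, 1720 and 1730 per Mb in replicates 1, 2 and 3). The share expected from density alone was not computed.

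Peaks were spread over many genes, with few in each. Of 20926 genes with sequence to test, 11728, 8616 and 10843 had a downstream peak in replicates 1, 2 and 3, with a median of 1 peak in each library. Each of the 3 libraries had a downstream peak in 4082 of these genes, or 19.5%, beside 16.5% of genes upstream and 25.6% with strands reversed. The share thus lay between both backgrounds. With an equal number of peaks drawn from each library the count was 2586, and with peaks of 86 to 200 nt alone it was 376. The genes with the most downstream peaks were Samd5 with 23 in replicate 1, Hipk2 with 43 in replicate 2 and Klhl11 with 32 in replicate 3, where Samd5 was picked for this count alone.

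A stricter measure was the common region, a stretch of 8 nt or more that a peak of at most 1000 nt covered in every library. There were 245 common regions downstream, in 198 genes (0.946% of those tested), and 146 upstream, in 138 genes (0.66%). With strands reversed, where the other strand often holds a gene, there were 2452. Of the 245, 52 (21.2%) lay inside a gene on the other strand, as did 28 (19.2%) of the upstream regions. Their density was 3.89 per Mb within 500 nt, 2.5 at 500 to 1000 nt, 2.56 at 1000 to 2000 nt, 1.44 at 2000 to 5000 nt and 0.754 at 5000 to 10000 nt. Upstream, the same bins held 2.04, 1.2, 0.732, 0.519 and 0.969 per Mb. Downstream regions were thus denser up to 5000 nt and sparser beyond. From peaks of 86 to 200 nt alone there were 59 common regions downstream, in 46 genes, and 18 upstream. With an equal number of peaks drawn from each library, 114 common regions were found downstream. These counts pool the libraries, so they carry no replicate error.

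RefSeq exons held many of the common regions. Of the 245 downstream, 68 (27.8%) lay in an exon of the same gene in RefSeq, 5 in an intron of it, 3 in another RefSeq gene and 169 (69%) outside RefSeq genes, while 8 of the 146 upstream regions (5.48%) lay in an exon of the same gene. From peaks of 86 to 200 nt alone, 31 of 59 (52.5%) lay in such an exon. Outside RefSeq genes the 169 downstream regions stand beside 129 upstream, which is 88.4% of the 146. All 245 downstream regions together had a median length of 79 nt, and 47 of the 245 (19.2%) were mostly repeat, as were 19.9% of the 146 upstream regions.

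Genes were named by their number of common regions, which makes that number a description and not a test. The 25 genes named held 71 common regions, of which 39 in 14 genes lay in RefSeq exons of the gene. Over these genes there were 175, 359 and 336 downstream peaks in replicates 1, 2 and 3, against 36, 11 and 28 upstream of their starts and 48, 59 and 62 on the other strand of the same sequence. The choice of the genes by downstream regions favours the downstream count, so this contrast is a description too. For 16 of the 25 every library had a peak in the annotated 3′UTR, and for 1, Cfap53, none had, beside 22.6% and 43% of all coding genes that have a 3′UTR in GENCODE.

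Atp7a, which codes for a copper-transporting ATPase, had the most common regions, 8, at 339 to 2923 nt past its GENCODE end on chromosome X (106124926, plus strand). It had 7, 27 and 24 downstream peaks in replicates 1, 2 and 3, which covered 684, 2401 and 2214 nt. Replicate 1 was thus the lowest, and the other strand held 1, 0 and 0 peaks. The RefSeq end lies 3235 nt past the GENCODE end, and 7, 27 and 23 of the peaks lay before it, so that 1 peak in all lay beyond. All 8 regions were in the RefSeq exon, although 2 of them were mostly repeat.

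Hipk2, a kinase that acts in transcription and the response to DNA damage, had 18, 43 and 25 downstream peaks on chromosome 6 (end at 38694390, minus strand). Its 7 common regions, 2 of them mostly repeat, lay at 2671 to 6568 nt, all in the RefSeq exon, which ends 6878 nt past the GENCODE end. Of its peaks, 18, 42 and 24 lay before that end, and 2, 2 and 0 peaks were on the other strand. Plag1, a zinc finger transcription factor, had 9, 21 and 15 peaks, of which 5, 20 and 13 lay before the RefSeq end at 2227 nt and 4, 1 and 2 beyond it. Its 4 common regions were all in RefSeq exons of the gene, 1 of them mostly repeat. Nrp1, a receptor for semaphorins and VEGF, had 13, 11 and 5 peaks, 11, 11 and 4 of them before the RefSeq end at 2113 nt. Its 3 common regions lay together at 1735 to 2025 nt. Replicate 1 was the highest for Nrp1 and the lowest for Plag1.

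Dusp4, a phosphatase that acts on MAP kinases, had the most common regions in sequence that neither annotation gives to the gene. GENCODE and RefSeq both end it at 34819894 on the plus strand of chromosome 8, and 6 common regions lay at 228 to 1969 nt past that end. It had 11, 16 and 21 downstream peaks in replicates 1, 2 and 3, and 10, 16 and 18 of them were within 2500 nt, the farthest of these at 2025 nt. Beyond 2500 nt there were 1, 0 and 3. An AATAAA starts 2039 nt past the annotated end, inside the last common region and 70 nt after its centre. On the other strand the same 10000 nt held 12, 31 and 32 peaks, where Tnks, which runs towards Dusp4, is annotated in the far part.

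The other genes named with at least 3 common regions past both annotations were Rnf41, Ttc33, Plcxd3 and Prcp. Rnf41, a ubiquitin ligase, had 9, 7 and 16 peaks and 3 common regions at 457 to 1033 nt, with 3, 0 and 2 peaks on the other strand. Ttc33, a protein with tetratricopeptide repeats, had 4, 21 and 22 peaks and 3 common regions at 240 to 567 nt. Those 3 regions lie inside Ptger4, a gene on the other strand, though that strand held only 1, 0 and 0 peaks. Replicate 1 had the fewest peaks for Ttc33. Plcxd3, of the phospholipase C family, had 14, 24 and 19 peaks and 3 common regions at 1798 to 3611 nt. Prcp, a carboxypeptidase, had 16, 11 and 19 peaks, of which 3, 0 and 4 were within 2500 nt, and its 3 common regions at 3096 to 9034 nt lay farther out, the last of them wholly in repeat. Of the common regions of Rnf41, Ttc33 and Plcxd3, 1 each was mostly repeat.

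**Figure D4:**
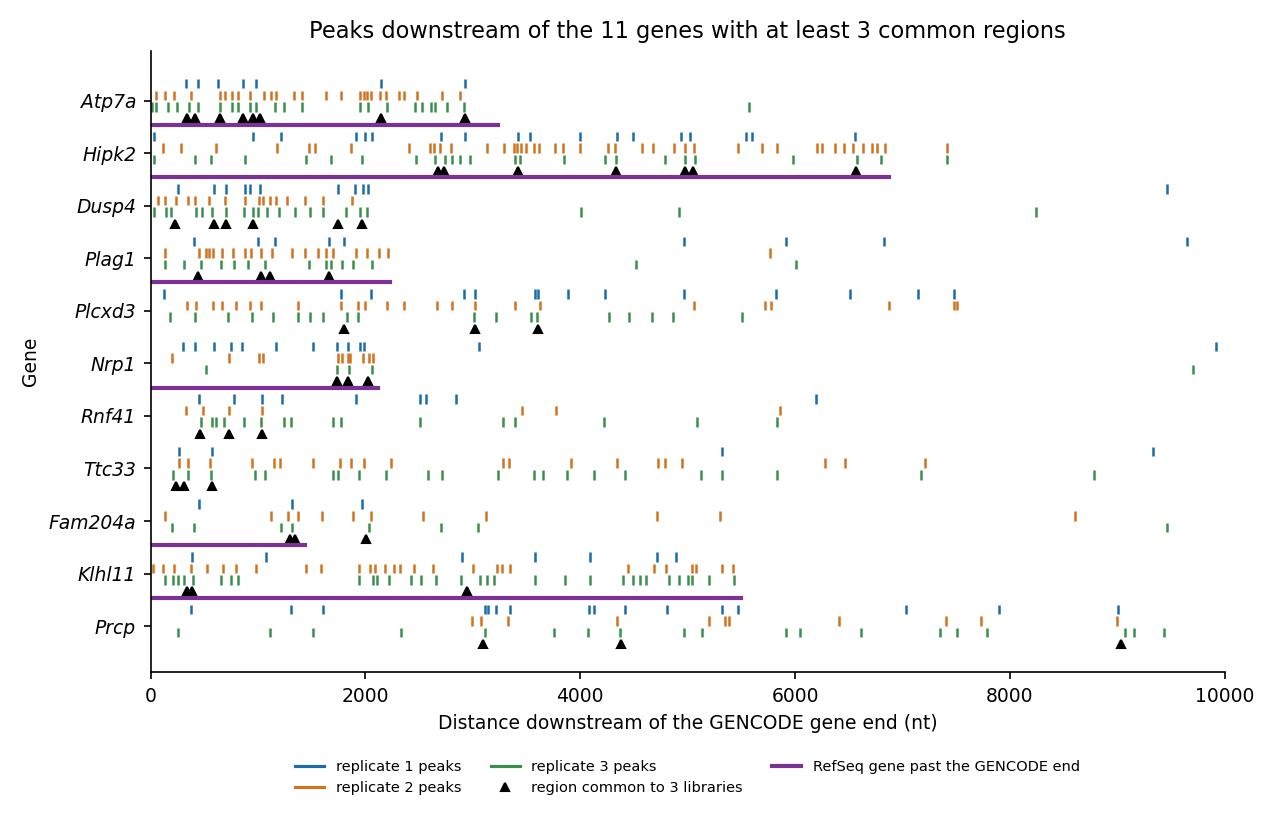
Downstream peaks of at most 1000 nt by distance from the GENCODE gene end (x axis, nt) for the 11 genes with at least 3 common regions (y axis), as ticks at peak midpoints in a row for each library, with triangles for common regions and purple bars for the length by which RefSeq extends the gene (shown where over 100 nt). Nearly all peaks of Atp7a and Hipk2 and all of Klhl11 lie along the purple bars, and most of Dusp4 lie within 2025 nt with no bar.

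Klhl11, a substrate adaptor for ubiquitin ligation, had 7, 29 and 32 downstream peaks, all before the RefSeq end of the gene at 5492 nt. Its 3 common regions at 343 to 2942 nt lie in an intron of the RefSeq model, and 1 of them is in repeat. Lcor, a corepressor of nuclear receptors, had 6, 35 and 23 peaks, all in the reach of a RefSeq gene that ends 33900 nt farther out, and its 2 common regions were likewise in an intron of that model, 1 of them in repeat. In both genes replicate 1 had the fewest peaks by far. Fam204a had 3, 12 and 8 peaks, with 2 of its 3 common regions in the RefSeq exon and 1 at 2008 nt beyond the RefSeq end at 1438 nt. Of the remaining genes, Zfp442, Ubxn2a, Fbxo30, Ubtd2, Stk24 and Strn3 had 2 common regions each and Arf6, Zfp146 and Glg1 had 1, all in RefSeq exons of the gene. Cfap53, Cox7a2l, Luc7l2 and Mgarp had 2 each, none in a RefSeq exon, and between 1 and 9 downstream peaks in a library. Both regions of Cfap53 and 1 each of Mgarp, Zfp442 and Fbxo30 were mostly repeat. Both regions of Mgarp lie inside Gm5103, a lincRNA gene on the other strand.

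AATAAA is shown in capitals for 3 genes, in 30 nt of GRCm38.p6, at the last common region of Dusp4 and after the last common region that lies in the RefSeq exon of Stk24 and Fam204a. These are printed because the Stk24 and Fam204a signals lie 21 and 26 nt before the RefSeq end, while neither annotation has an end near the signal of Dusp4. They are not typical: of 9 such signals in named genes that RefSeq extends by over 100 nt, 2 lay within 50 nt of the RefSeq end and 7 lay 270 to 33004 nt before it. Stk24, a kinase of the Ste20 family, had 2, 9 and 12 downstream peaks, of which 2, 8 and 12 lay before the RefSeq end at 2156 nt.
Stk24, chr14:121284191-121284220, minus strand: tcgtgctaggtcAATAAAgctctggaaagc
Fam204a, chr19:60197157-60197186, minus strand: ctacattagaacAATAAAatggtagcatta
Dusp4, chr8:34821921-34821950, plus strand: catttgaagaaaAATAAAtacattttcaac

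Over all common regions, polyadenylation signals were not much more frequent than in the sequence around them. AATAAA or ATTAAA on the gene's strand was found within 200 nt after the centre of 61 of 245 downstream regions, or 24.9% (Wilson 95% interval 19.9 to 30.7%, counting error only), and of 28 of 146 upstream regions, or 19.2% (13.6 to 26.3%). Of all windows of 200 nt in eligible sequence, 20.9% downstream and 23.3% upstream held either signal. The downstream interval includes both values, so a difference was not detectable at this number of regions. Regions from peaks of 86 to 200 nt alone gave 39%, and AATAAA alone gave 14.7% beside 13% of downstream windows. The share was 36.8% (26.3 to 48.6%) for the 68 regions in RefSeq exons of the gene and 20.1% (14.8 to 26.8%) for the 169 outside RefSeq genes. Those 68 regions come from 42 genes and neighbours can share a signal, as 2 do in Fam204a, so their interval is too narrow. The windows were not limited to RefSeq exons, so a difference from them was not tested. In steps of 100 nt around the centre, the share of regions with AATAAA was 10.6% in the first 100 nt after it and between 3.67% and 10.6% in the other steps from 500 nt before to 499 nt after. Among the regions in RefSeq exons of the gene it was 17.6% (12 of 68) in that first step and between 1.47% and 13.2% in the others.

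Base composition moved with the same split. The median A or T content was 59.5% in downstream common regions, 55% in upstream ones and 65% in the 7324 common regions of annotated 3′UTRs. In downstream regions from peaks of 86 to 200 nt alone it was 65.9%. Downstream sequence as a whole had 55.6% A or T and upstream sequence 56.1%. Regions in RefSeq exons of the gene had a median of 68.3% (quartiles 59.5 to 73.7%) and those outside RefSeq genes 56% (50 to 65.2%). The signals counted above consist of A and T, and their part that follows from composition was not tested.

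Seed matches were near the number that the surrounding sequence gives. The 245 common regions held 34 matches of 7 letters to the 23 families, against 28.9 expected from the rest of the same genes' downstream sequence, a ratio of 1.18 (exact Poisson 95% interval 0.816 to 1.65, counting error only). Regions from peaks of 86 to 200 nt alone gave a ratio of 0.908. Single families had at most 5 matches, the number for miR-128. Regions shared by at least 2 libraries gave more sequence, 2995 regions, with 415 matches against 380 expected, a ratio of 1.09, beside 0.984 for the 2225 upstream regions and 1.32 for the common regions of 3′UTRs. For all 7-letter sequences with at least 5 expected, the median ratio was 0.969 downstream, 0.928 upstream and 0.859 in 3′UTRs. Among those with as many A and T letters as a seed match, it was 0.96, 0.924 and 0.895. For downstream regions of all 3 libraries the medians were 1.2 and 0.88, but no more than 34 sequences reached that expectation there and no seed match did. The 3′UTR regions were shared by 3 libraries and the downstream and upstream ones by at least 2, so the ratios are given side by side and their order was not tested.

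The families that led in 3′UTRs did not all lead downstream. Among regions of at least 2 libraries, miR-30 had 25 matches against 15.3 expected, miR-26 had 18 against 11.1 and miR-23 had 25 against 17.4. Upstream regions of at least 2 libraries had 15 against 10.6, 8 against 7.58 and 8 against 12.7 for these families. The highest upstream ratio was 1.91, for miR-130, above the highest downstream ratio of 1.64, for miR-30. In 3′UTR regions the highest ratios were 2.36 for miR-25, 2.05 for miR-21 and 1.94 for miR-130, which downstream stood at 0.93, 1.15 and 1.17. For miR-25 the downstream value rests on 6 matches and for miR-21 on 12. By RefSeq status, the 535 regions in exons of the same gene held 91 matches against 78.5 expected from the rest of those exons, a ratio of 1.16 (exact Poisson 95% interval 0.934 to 1.42), and the 2341 regions outside RefSeq genes held 308 against 291, a ratio of 1.06 (0.942 to 1.18). Both intervals include 1, so an excess was not detectable in either set.

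**Figure D5:**
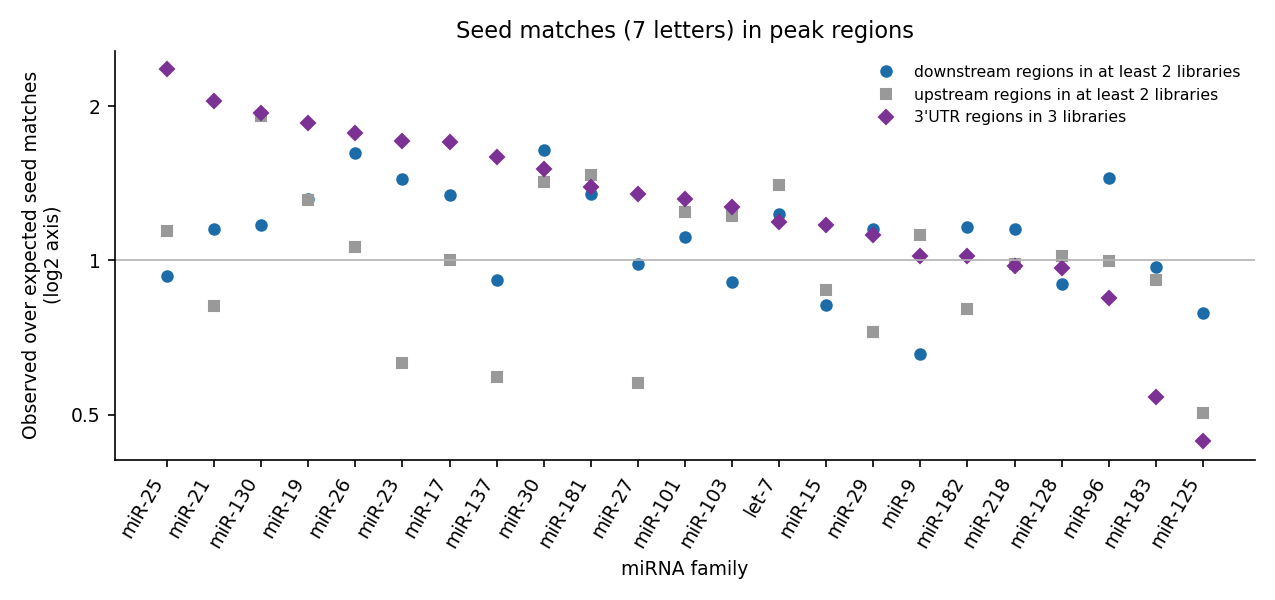
Observed over expected matches of 7 letters to the seeds of 23 miRNA families (x axis, ordered by the 3′UTR value; y axis, log2 scale) in downstream regions of at least 2 libraries (blue circles), upstream regions of at least 2 libraries (grey squares) and 3′UTR regions of 3 libraries (purple diamonds). Purple values run from 2.36 for miR-25 to 0.444 for miR-125, and blue values from 1.64 for miR-30 to 0.657 for miR-9.

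Genes were also looked up by 4 lists, 1 of genes with long 3′UTRs in neurons and the others of functional classes. Every library had a downstream peak in 6 of 14 long 3′UTR genes of neurons, as in 13 of 36 RNA-binding and miRNA effector proteins, 7 of 19 factors of cleavage and polyadenylation and 8 of 18 axon and cytoskeleton genes. These shares, 42.9%, 36.1%, 36.8% and 44.4%, stand beside 19.5% of all genes tested, and no test of the lists was made. Of these lists, 9, 31, 13 and 10 genes had a peak in the annotated 3′UTR in every library, of 14, 36, 19 and 20 genes found and beside 22.6% of all coding genes that have a 3′UTR in GENCODE. Elavl1 alone had a common region, beside 0.946% of all genes tested.

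Elavl1 codes for HuR, an RNA-binding protein that stabilises mRNAs with A and U rich elements. It had 3, 3 and 6 downstream peaks against 1, 1 and 1 upstream. Of the downstream peaks 1, 3 and 5 were of 86 to 200 nt, and its common region of 81 nt lay 358 nt past the GENCODE end, in the exon of RefSeq, which ends 601 nt past it. Elavl2, its neuronal relative, had 4, 4 and 7 peaks against 3, 0 and 2 upstream and no common region, and RefSeq places its end 39230 nt farther out. Ptbp2, a splicing regulator of neurons, had 5, 3 and 3 peaks downstream and 0, 3 and 5 upstream, so that the order differed between libraries. For Ago2 itself there were 1, 3 and 2 downstream and 1, 1 and 2 upstream. Dicer1 had 2, 2 and 1 downstream and none upstream. Cpeb4 went the other way in each library, with 3, 1 and 1 downstream and 5, 6 and 7 upstream. Cstf3 had 1, 1 and 1 downstream and 5, 1 and 3 upstream. The genes given here are examples, and no tally over the lists was made. Among the cytoskeleton genes, Map2 had 2, 1 and 1 downstream and 0, 0 and 1 upstream, and Gap43, a growth cone protein, had 2, 3 and 1 downstream and none upstream. Lin28b, which blocks let-7 maturation, had 1, 1 and 7 downstream and 0, 2 and 2 upstream, none of the downstream peaks of replicate 3 being of 86 to 200 nt.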

How the data were processed

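The authors called peaks for each library and deposited them in 1 table with position, strand and a score of unstated unit, between 54.6 and 60 and 60 for nearly all peaks, which was not used. Per the submitters' processing notes, FastQC, cutadapt, STAR and mm10 were used, with versions, peak caller and threshold not given in the sources used here. Starts were read as counted from 0. All value columns could be matched to samples. Peaks on the 21 nuclear chromosomes were assigned by midpoint to the gaps between GENCODE M21 genes of the same strand, with RefSeq genes and sequence of GRCm38.p6 (lower case taken as repeat) as a second source. Densities are peaks divided by the gap sequence within the same distances. Ratios were tested by an exact two-sided sign-flip permutation over the 3 libraries. Intervals are Wilson or exact Poisson at 95%, and read depth is unknown. A p of 0.25 says only that all 3 libraries lay on the same side of 1. It does not measure the spread between these samples, which may be technical. Scripts ran in Python 3.11.15 with pysam 0.24.0, scipy 1.17.1, pandas 2.3.3 and numpy 2.4.6, figures were drawn with matplotlib 3.10.9, and the density code was tested on simulated data.

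Named genes were the 25 with the most common regions (ties by covered length, then symbol; symbols of predicted genes, 9 of 198, were not named), the members of the 4 lists with peaks in all 3 libraries, and genes with 8mer sites. Of 24 miRNA families listed, 23 had a sequence in the table used, and miR-124 did not enter. The peaks, lists and rules were chosen with earlier results of these data known. Alternatives were peaks of 86 to 200 nt, any gene end in place of the nearest, whole peaks outside genes, a window of 5000 nt, either strand, 497795 peaks drawn per library, each replicate left out, and others given at the end. Leaving out RefSeq genes, and the alternatives for the density and strand ratios of peaks of 86 to 200 nt, were added after seeing the data.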

Additional observations from a re-analysis of the deposited data

Results flagged for a closer look

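Peaks outside the 21 nuclear chromosomes entered no comparison. There were 430, 276 and 315 in replicates 1, 2 and 3, 1021 in all, and the files hold no control sample to set them against.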

How the results depend on the processing

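No paired analysis was possible because there is no other group to pair the libraries with, and the ratios were formed within each library. Of 83 alternative values for 11 results, 59 moved little. They moved by less than 1 SD between libraries, or by less than their counting interval where there are no replicates. Counts and the A or T content among them moved by at most 1.5 times.

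With peaks of 86 to 200 nt alone, the density ratio was 1.54, the sense to antisense ratio 0.32, the share met by another library 8.54%, the genes with a downstream peak in all libraries 376, the common regions 59, the share of regions with a polyadenylation signal 39%, and the seed ratio 0.908 in place of 1.18, the other side of 1. Outside genes on either strand, the sense to antisense ratio was 1.16 in place of 0.555, also the other side of 1, with 2586 genes. A window of 5000 nt gave a density ratio of 1.18, 1676 genes and a sense to antisense ratio of 1.95 for peaks of 86 to 200 nt clear of genes on both strands. Equal numbers of peaks per library gave 2586 genes and 114 common regions, trimming 30 nt from each side of a peak 158 regions, and asking for at least 2 libraries 10653 genes. When the overlap had to cover at least 50% of a peak, the share met was 7.96%. A signal was found for 14.7% of regions with AATAAA alone and 17.6% within 100 nt. The causes of these changes were not tested, beyond the fewer peaks or libraries that a setting asks for.

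Leaving out 1 replicate at a time gave density ratios of 1.1 to 1.15, sense to antisense ratios of 0.43 to 0.621, shares met of 10.2 to 15.2% (the highest without replicate 1), 5606 to 7338 genes and 840 to 1448 common regions, where only 2 libraries then have to share a gene or region. Leaving out RefSeq genes, chosen after seeing the data, gave density ratios of 1.08 for all peaks and 1.3 for peaks of 86 to 200 nt. Read depth is unknown, and 3 libraries allow no p under 0.25.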
